A study of Mus musculus with 4 samples.

Results

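The Gimap genes encode GTPases of the immunity-associated protein family, and 8 of them were read in effector CD4 cells from the spinal cord (CNS) and the draining lymph node (dLN) of mice with EAE: Gimap1, Gimap3, Gimap4, Gimap5, Gimap6, Gimap7, Gimap8 and Gimap9. They were taken by gene symbol, with the values of a symbol's transcripts added, and make up 8 of the 23990 genes in the deposited tables. All 8 passed the minimum of 1 FPKM (fragments scaled to transcript length and library depth) in at least one tissue, as did 10634 genes in all. EAE is a mouse model of MS, brought on here by immunizing wild type C57BL/6 mice with a MOG peptide in complete Freund's adjuvant followed by pertussis toxin. CD44+CD4 cells were sorted at disease onset from spinal cords and from pooled dLN. Each tissue gave 2 libraries, which share genotype and strain, and there were no naive or unimmunized mice. The paper's Methods state that sorted cells were stimulated with PMA and ionomycin, and the sample labels name no stimulation.

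Gimap proteins share a GTP-binding domain and are made mainly by lymphocytes, where several of them sit on the membranes of organelles. Some are known to keep resting T cells alive, others to act in T-cell death or in autophagy, and lymphocytes are lost in animals without Gimap5 or Gimap1. Their genes lie side by side in 1 cluster, which makes it possible to ask how far neighbouring copies of a gene are read alike.

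The estimated depth was 18.3 M to 21.7 M fragments per library. Log2 values of replicates over all tested genes correlated at 0.976 in CNS and 0.986 in dLN. The tissues differed in sex-linked transcripts as well, with Y-linked Ddx3y at 12.7 and 11.2 FPKM in CNS and listed at 0 in both dLN libraries. Xist was at 26.6 and 22.3 FPKM in dLN, whereas CNS held no more than 0.0026 FPKM of it. Tissue and sex of the mice therefore cannot be told apart here. Nothing in the labels says that libraries of a tissue came from separate mice, so p-values measure the spread between these libraries, which may be technical.

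In mouse build mm10 the cluster spans 123.6 kb of chromosome 6, from the start of Gimap8 at 48647234 to the end of Gimap3 at 48770851. The order along the chromosome is Gimap8, Gimap9, Gimap4, Gimap6, Gimap7, Gimap1, Gimap5 and Gimap3, with gaps of 2.4 kb (Gimap1 to Gimap5) to 15.3 kb (Gimap8 to Gimap9). In GENCODE M21, Gimap6 and Gimap3 are on the minus strand and the other 6 on the plus strand. No other symbol of the deposited tables overlaps a member. GENCODE also holds Gimap1os, an antisense transcript that overlaps Gimap1, and Gm28053, a gene that runs over Gimap7, Gimap1 and Gimap5. A TruSeq RNA V2 kit does not mark strand, so reads of Gimap1os and Gimap1 cannot be told apart.

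The 250 bases before the start are shown for the members with the highest ratio between tissues (Gimap7), the highest level in CNS (Gimap4) and the lowest ratio (Gimap5). They are RefSeq sequences of GRCm38.p6, read 5′ to 3′ on the plus strand, from chr6:48718371-48718620 for Gimap7, chr6:48684328-48684577 for Gimap4 and chr6:48745947-48746196 for Gimap5. Capitals mark the letters CACCC, to which KLF factors bind, TGTGGT (RUNX), GGAAGT (ETS) and TTCNNNGAA (STAT), searched on both strands.
Gimap7: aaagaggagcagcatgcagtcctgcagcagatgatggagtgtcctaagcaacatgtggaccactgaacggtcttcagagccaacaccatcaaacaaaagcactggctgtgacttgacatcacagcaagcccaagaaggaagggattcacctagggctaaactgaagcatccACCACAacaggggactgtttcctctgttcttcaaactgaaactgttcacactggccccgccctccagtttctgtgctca
Gimap4: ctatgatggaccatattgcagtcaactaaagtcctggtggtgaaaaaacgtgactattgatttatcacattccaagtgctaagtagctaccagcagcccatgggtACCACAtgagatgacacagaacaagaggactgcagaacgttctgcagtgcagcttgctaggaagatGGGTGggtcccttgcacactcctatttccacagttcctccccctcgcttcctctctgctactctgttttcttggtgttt
Gimap5: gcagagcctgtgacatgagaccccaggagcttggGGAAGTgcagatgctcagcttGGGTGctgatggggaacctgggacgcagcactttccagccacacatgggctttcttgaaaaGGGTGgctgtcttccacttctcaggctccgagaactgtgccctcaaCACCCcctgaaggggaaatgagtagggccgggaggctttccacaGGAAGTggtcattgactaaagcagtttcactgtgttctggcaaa
CACCC was found before 5 of the 8 genes (Gimap3, Gimap4, Gimap5, Gimap8 and Gimap9). With an additional window for Gimap8, the members had 9 windows. CACCC lay in 6 of these 9, and in 52.0% of the 32851 windows of the same length in all RefSeq genes. TGTGGT was found before Gimap1, Gimap4 and Gimap7 and in 14% of all windows. GGAAGT lay before Gimap5 and Gimap6 (19.7% of windows) and TTCNNNGAA before Gimap6 and Gimap8 (7.0%). No motif was held by all members, and Gimap7 and Gimap5 shared none of the searched letters. A match of letters is a description and not a site of binding.

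All 8 Gimap genes were higher in CNS than in dLN effector CD4 cells, except that Gimap5 turned lower when libraries were scaled to T-cell markers. The summed FPKM of the family was 1896 and 1729 in the CNS libraries and 428 and 382 in those from dLN, which is 0.329% and 0.286% of the FPKM of all genes in CNS and 0.0831% and 0.0744% in dLN. The means were 1812 ± 118 (SD, n = 2) and 405 ± 33.1 (SD, n = 2), a 4.48-fold difference. The rise was uneven, from 1.37-fold for Gimap5 to 44.2-fold for Gimap7. In bulk RNA a higher level can come from more cells that read a gene or from more RNA of it per cell, and these cannot be told apart.

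In limma over all tested genes, 8 of 8 members had a Benjamini-Hochberg adjusted p under 0.05 and were higher in CNS, against 37.8% of all genes tested that were called higher, 37.2% called lower and 74.9% called in either direction. For all 8, both CNS libraries lay above both dLN libraries, as they did in 45.7% of tested genes, while the reverse held in 43.7%. A log2 ratio of at least 1 was also reached by 7 of 8, against 21% of tested genes called higher at that size. The median log2 ratio of the members, on the scale of FPKM plus 1, was 1.83, and that of all tested genes 0.0452. Since calls are common in this comparison, the members are described below by the size of their change.

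**Figure D1:**
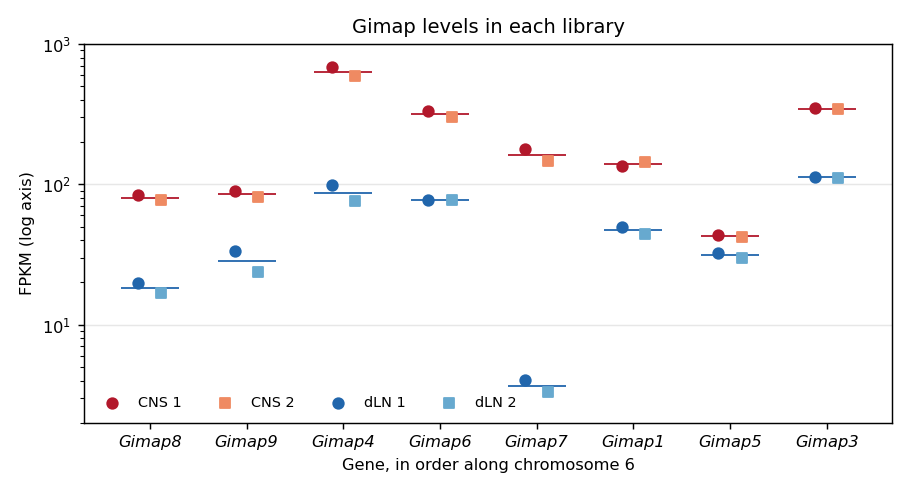
FPKM (log axis) of each Gimap gene in the 2 CNS libraries (red) and the 2 dLN libraries (blue), in order along chromosome 6, with horizontal lines at the tissue means. In each gene both CNS points lie above both dLN points, with the widest gap for Gimap7 and the narrowest for Gimap5.

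Gimap7 (Entrez gene 231932) encodes a GTPase known to stimulate GTP hydrolysis by pairing with itself or with other Gimap proteins. It was at 178 and 146 FPKM in CNS and at 4.04 and 3.30 FPKM in dLN. Both dLN libraries were low, and the lowest CNS library was 36.2-fold above the highest from dLN. The log2 ratio was 5.12 ± 0.14 (SE, limma adjusted p = 8.12e-05), and 0.197% of tested genes, Gimap7 included, had one at least as high. The dLN values rest on about 81 and 78 fragments (95% Poisson intervals of 64.3 to 101 and 61.7 to 97.3, for counting error only), and those of CNS on about 4182 and 3359. Every other member had at least 621 estimated fragments in each library.

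Gimap4 (Entrez gene 107526), whose product is linked to the pace of T-cell death after an apoptotic stimulus, was the most abundant member in CNS. It was at 680 and 592 FPKM in CNS and at 98.6 and 75.7 FPKM in dLN. The groups did not overlap and the means differed 7.30-fold, with a log2 ratio of 2.86 ± 0.15 (SE, limma adjusted p = 0.000142). In dLN it came after Gimap3.

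Gimap6 (Entrez gene 231931) encodes a partner of the autophagy protein Gabarapl2. It was at 336 and 303 FPKM in CNS and at 77.3 and 76.9 FPKM in dLN. The dLN libraries were nearly equal and both lay 3.93-fold or more below CNS. The log2 ratio was 2.04 ± 0.0846 (SE, limma adjusted p = 9.18e-05). Gimap8 (Entrez gene 243374) is the long member, with a coding sequence of 2064 bases against 873 to 984 bases for the others. It was at 84.1 and 76.9 FPKM in CNS and at 19.7 and 16.8 FPKM in dLN. Its log2 ratio of 2.09 ± 0.11 (SE, limma adjusted p = 0.000144) was close to that of Gimap6, and their intervals overlap.

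Gimap3, Gimap9 and Gimap1 rose by amounts whose intervals overlap. Gimap3 (Entrez gene 83408), found at mitochondria and the endoplasmic reticulum, was at 349 and 342 FPKM in CNS and at 113 and 111 FPKM in dLN. Its log2 ratio was 1.62 ± 0.0707 (SE, limma adjusted p = 9.6e-05). Gimap9 (Entrez gene 317758) was at 90.1 and 81.7 FPKM in CNS and at 33.3 and 23.8 FPKM in dLN. The dLN libraries of Gimap9 differed 1.40-fold, more than the replicates of any other member in either tissue, and its log2 ratio of 1.57 ± 0.17 (SE, limma adjusted p = 0.00104) had the largest error of the 8. Gimap1 (Entrez gene 16205), which mature T and B cells need to survive, was at 135 and 144 FPKM in CNS and at 49.8 and 44.2 FPKM in dLN. Its log2 ratio was 1.55 ± 0.0962 (SE, limma adjusted p = 0.000195). The 95% intervals of the log2 ratio were 1.43 to 1.80 for Gimap3, 1.12 to 2.03 for Gimap9 and 1.30 to 1.80 for Gimap1.

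Gimap5 (Entrez gene 317757), a protein of lysosomal membranes whose loss depletes T cells, changed least. It was at 43.2 and 42.2 FPKM in CNS and at 32.5 and 29.9 FPKM in dLN. The groups did not overlap, but the lowest CNS library exceeded the highest dLN library by 1.30-fold only. The log2 ratio was 0.44 ± 0.0867 (SE, 95% interval 0.22 to 0.67, limma adjusted p = 0.00742), and 63.3% of the tested genes had a lower one. The call was lost without dLN replicate 2 (log2 ratio 0.38, limma adjusted p = 0.0523) and when each library was scaled to the same sum (log2 ratio 0.25, limma adjusted p = 0.0615). Scaling to T-cell markers, an alternative chosen after seeing the data, reversed its direction (log2 ratio -0.49, limma adjusted p = 0.00374).

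The intervals of Gimap5, of Gimap4 and of Gimap7 each overlap with that of no other member. Those of Gimap3, Gimap9 and Gimap1 reach into that of Gimap8, and that of Gimap9 also into that of Gimap6. With 2 libraries in each tissue the smallest two-sided p of an exact permutation test is 0.333, so the difference between 2 members' changes was not tested one by one. Within each library, Gimap7 was 4.12 and 3.47 times Gimap5 in CNS and 0.124 and 0.110 times Gimap5 in dLN. Their order thus turned around between the tissues in every library. Gimap4 was 1.95 and 1.73 times Gimap3 in CNS and 0.871 and 0.682 times Gimap3 in dLN.

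By mean FPKM, which is per length and so comparable between genes, the order in CNS was Gimap4, Gimap3, Gimap6, Gimap7, Gimap1, Gimap9, Gimap8 and Gimap5. In that order only the neighbours Gimap9 and Gimap8 overlapped, and the lower Gimap7 library (146 FPKM) was barely above the higher Gimap1 library (144 FPKM). In dLN it was Gimap3, Gimap4, Gimap6, Gimap1, Gimap5, Gimap9, Gimap8 and Gimap7, with overlap between Gimap4 and Gimap6 and between Gimap5 and Gimap9. Gimap7 moved from the last rank in dLN to the fourth in CNS.

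**Figure D2:**
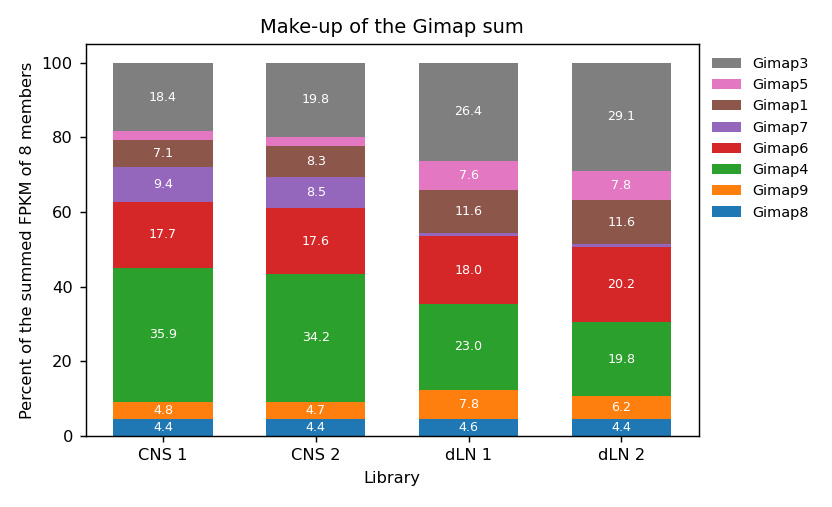
Percent of the summed FPKM of the 8 Gimap genes contributed by each, in each library (1 bar per library, parts add to 100). Gimap4 and Gimap7 take larger parts in both CNS libraries, and Gimap5 takes 2.28% and 2.44% in CNS against 7.58% and 7.84% in dLN.

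As a share of the family sum, 2 members were higher in both CNS libraries than in both from dLN. Gimap4 made up 35.1% ± 1.15 (SD, n = 2) of it in CNS but 21.4% ± 2.25 (SD, n = 2) in dLN, and Gimap7 made up 8.93% ± 0.651 (SD, n = 2) and 0.904% ± 0.0558 (SD, n = 2). The shares of Gimap1, Gimap3, Gimap5, Gimap6 and Gimap9 were lower in both CNS libraries, although their FPKM rose. The share of Gimap3, the largest in dLN, was 27.8% ± 1.89 (SD, n = 2) there and 19.1% ± 0.958 (SD, n = 2) in CNS. Gimap8 held its part, at 4.44% and 4.45% in CNS and 4.60% and 4.40% in dLN.

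Gimap3 and Gimap5 are close copies. Their coding sequences in GENCODE are 90.4% identical over 895 aligned bases, while the next pair, Gimap7 and Gimap9, is 66.6% identical. Of the stretches of 50 bases in the transcripts, 190 were the same in both, which is 9.07% of those of Gimap3 and 9.98% of those of Gimap5, and no other pair of members shared any. Reads of such stretches could be split between Gimap3 and Gimap5, and how the authors assigned them is not given in the sources used here. Their added FPKM was 393 and 384 in CNS and 146 and 141 in dLN. Gimap7 and Gimap9 rose by very different amounts, 44.2-fold and 3.01-fold, with no shared stretch.

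Gimap4, Gimap8 and Gimap1 were given as several transcripts. The 1810-base transcript of Gimap4 carried 79.8% and 82.4% of the gene's FPKM in CNS and 92.3% and 90.7% in dLN. The 902-base transcript held 8.73% and 6.45% in CNS and 2.41% and 3.16% in dLN, and the 963-base transcript 7.76% and 7.50% against 3.54% and 2.97%. The short transcripts of Gimap4 thus took a larger share in both CNS libraries. In Gimap8 the 3648-base transcript held 29.8% and 13.2% in CNS and 14.1% and 10.4% in dLN. The CNS libraries thus differed more from each other than the dLN libraries did. The tissues overlapped, since CNS replicate 2 lay below dLN replicate 1. In Gimap1 the 1505-base transcript held between 95.3% and 97.4% in all 4 libraries. These transcripts overlap almost wholly, so their split is an estimate of the program that computed FPKM.

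**Figure D3:**
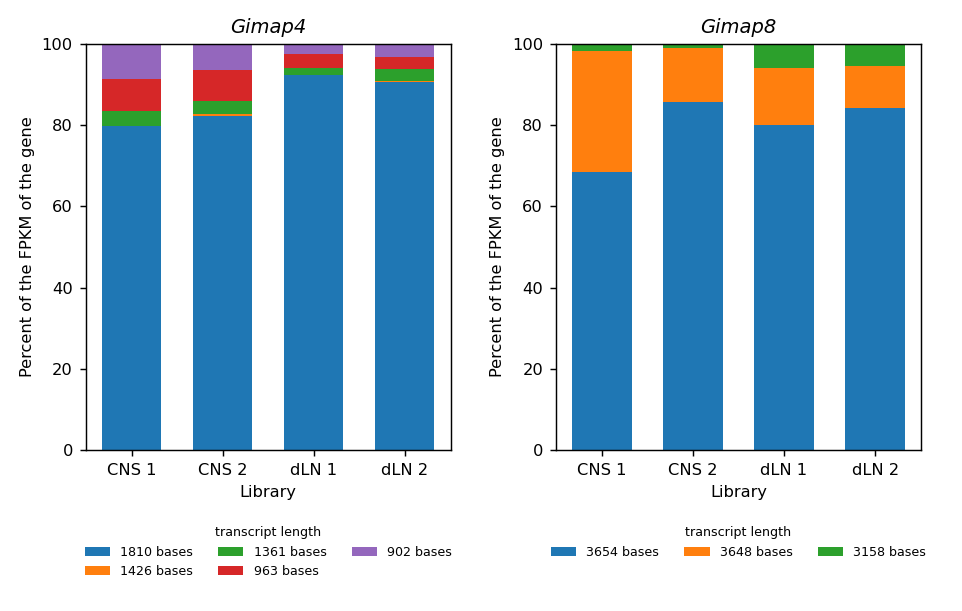
Percent of the FPKM of Gimap4 (left) and Gimap8 (right) given to each RefSeq transcript in each library (1 bar per library, colours by transcript length). For Gimap4 the 1810-base transcript holds 79.8% to 82.4% in CNS and 90.7% to 92.3% in dLN, and for Gimap8 the parts differ between the CNS libraries.

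In order along the chromosome the log2 ratios were 2.09 (Gimap8), 1.57 (Gimap9), 2.86 (Gimap4), 2.04 (Gimap6), 5.12 (Gimap7), 1.55 (Gimap1), 0.44 (Gimap5) and 1.62 (Gimap3), so they went up and down between neighbours, with a fall from Gimap7 over Gimap1 to Gimap5. Of 36 other genes within 1 Mb of the cluster, 23 were tested, 9 of them higher and 8 lower. Among all tested genes 37.8% were called higher and 37.2% lower. The median log2 ratio of the 23 neighbours was 0.129. The nearest tested gene before the cluster was Zfp775, 24.0 kb away, at 3.09 and 3.17 FPKM in CNS and at 1.54 and 1.03 FPKM in dLN (log2 ratio 0.86, limma adjusted p = 0.00531). After the cluster came Tmem176b, 63.0 kb away, which encodes a membrane protein and was at 123 and 144 FPKM in CNS and at 6.44 and 3.71 FPKM in dLN (log2 ratio 4.50, limma adjusted p = 0.000137). Tra2a, a splicing factor gene 473.1 kb after the cluster, fell, from 92.1 and 94.7 FPKM in dLN to 18.6 and 21.1 FPKM in CNS (log2 ratio -2.18, limma adjusted p = 9.6e-05).

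**Figure D4:**
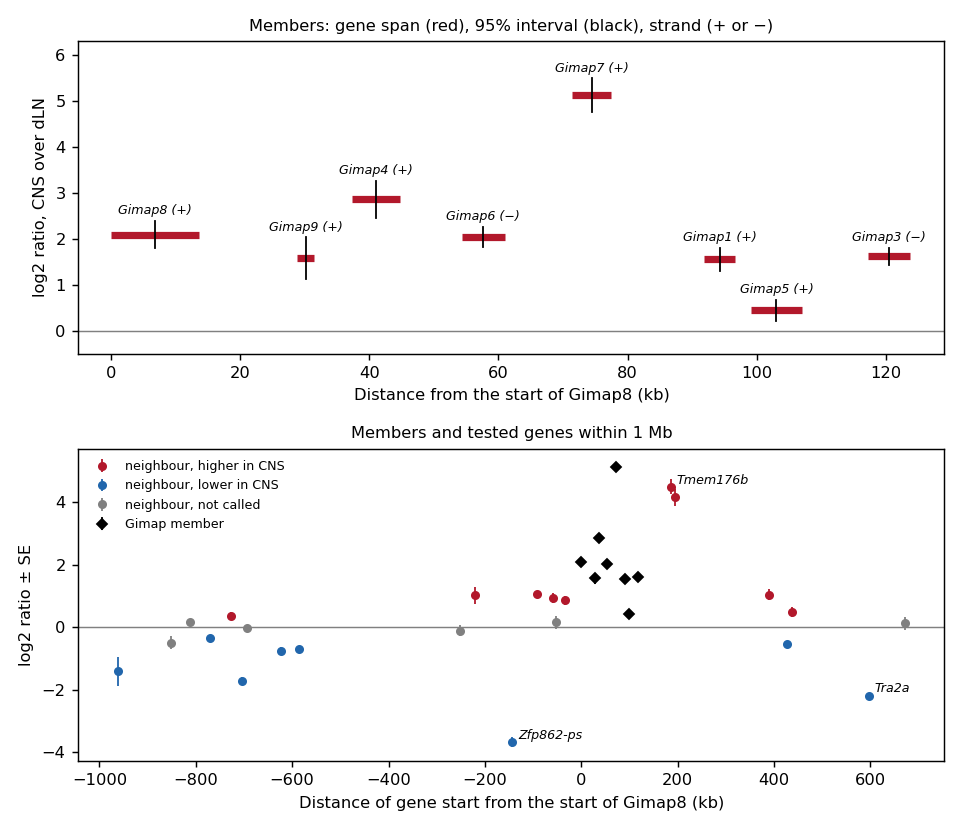
Top, log2 ratio (CNS over dLN, FPKM plus 1) of each Gimap gene at its place in the cluster, with 95% limma intervals and distance in kb from the start of Gimap8. Bottom, the same ratio with standard errors for the members and the 23 tested genes within 1 Mb, where neighbours lie on both sides of 0 and all 8 members above it (Gimap5 falls below it when scaled to T-cell markers).

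Beside the Gimap genes stood other lists, chosen with earlier results of these data known. Of 20 genes of resting lymphocytes and of their exit from lymph nodes, 13 rose and 5 fell in CNS (median log2 ratio 1.36). By level its leading genes were Slfn2, at 319 and 324 FPKM in CNS and at 817 and 809 FPKM in dLN (log2 ratio -1.33, limma adjusted p = 0.000118), and Btg1, an inhibitor of proliferation (log2 ratio 1.13, limma adjusted p = 0.000234). Klf2, a factor of resting T cells named after its values were seen, was at 179 and 216 FPKM in CNS and at 2.52 and 2.28 FPKM in dLN. The list moved both ways, while all 8 Gimap genes were called higher in limma, Gimap5 turning lower when scaled to T-cell markers. Of all tested genes, 37.8% were called higher and 37.2% lower. Of 28 tested genes that T-cell stimulation induces, 3 were higher and 20 lower (median log2 ratio -2.50), led by Il2 at 18.2 and 38.8 FPKM in CNS and at 5363 and 6176 FPKM in dLN (log2 ratio -7.70, limma adjusted p = 0.000101). Tnfsf8, which encodes the CD30 ligand, had a log2 ratio of -6.55. Whether the difference in stimulation genes has a part in the Gimap levels was not tested.

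Of 18 tested genes of the GBP, IRG and Mx families of immune GTPases, 16 were called higher by limma, against 37.8% of all tested genes. The median log2 ratio was 1.67 and the lowest 0.138 (Irgq, not called). Igtp was at 219 and 191 FPKM in CNS and at 73.0 and 60.3 FPKM in dLN (log2 ratio 1.61, limma adjusted p = 0.000388), and Gbp2 had a log2 ratio of 1.36 (limma adjusted p = 0.000411). The range of that list, 0.138 to 3.08, holds 7 of the 8 Gimap ratios, and Gimap7 lies above it.

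Genes of the Bcl2 family and of autophagy moved both ways, as did tested genes at large, of which 37.8% were called higher and 37.2% lower. In the Bcl2 family of death regulators, 7 of 15 tested genes were higher and 3 lower (median log2 ratio 0.0881). Bcl2a1b, a pro-survival member, was at 322 and 320 FPKM in CNS and at 462 and 434 FPKM in dLN (log2 ratio -0.48, limma adjusted p = 0.00292), and its near copy Bcl2a1d had a log2 ratio of -0.20 that was not called (limma adjusted p = 0.153). Reads of these copies could be split between them. Of 13 autophagy genes, 4 were higher and 2 lower (median 0.0648). Gabarap was at 214 and 221 FPKM in CNS and at 92.8 and 91.2 FPKM in dLN (log2 ratio 1.23, limma adjusted p = 0.000179), and Sqstm1 was not called (log2 ratio 0.14, limma adjusted p = 0.355). Gabarapl2, the partner of Gimap6 and named after its values were seen, was at 186 and 174 FPKM in CNS and at 65.4 and 57.8 FPKM in dLN (log2 ratio 1.53, limma adjusted p = 0.00021).

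**Figure D5:**
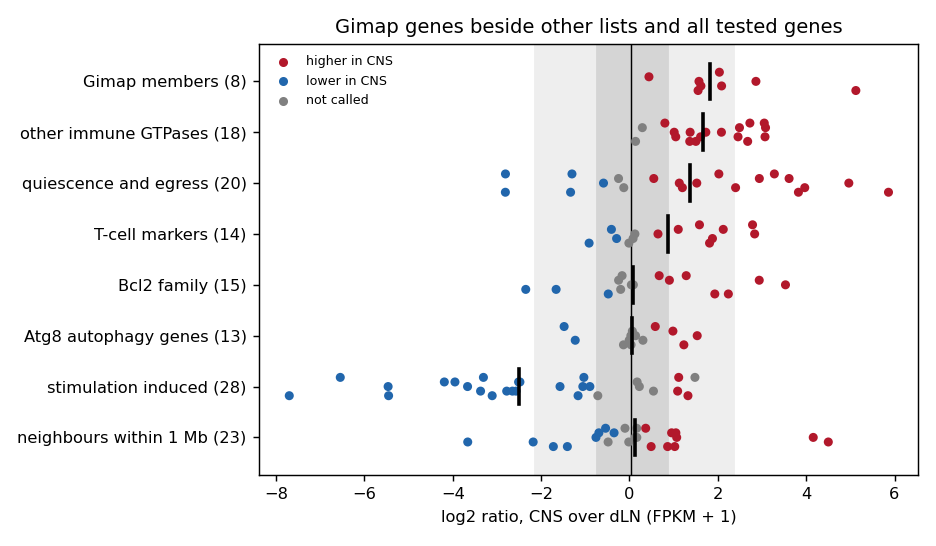
Log2 ratio (CNS over dLN, FPKM plus 1) of each tested gene in 8 lists, with the number tested in brackets and a black bar at the list's median. Red points were called higher and blue points lower in CNS, grey points were not called, the dark band runs from the 25th to the 75th percentile of all tested genes, the light band from the 5th to the 95th, and the thin line marks their median. All 8 Gimap points are red, Gimap5 turns lower when scaled to T-cell markers, and Gimap7 is the farthest to the right of them.

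The markers of CD4 cells were present in both tissues but not at the same level. Of 14 T-cell markers, 8 were higher and 3 lower in CNS, against 37.8% of all tested genes called higher and 37.2% lower. The share called in either direction, 78.6%, was near the 74.9% of all tested genes. The sum of the 14 markers was 5149 and 5286 FPKM in CNS and 2859 and 2752 FPKM in dLN. Thy1 was at 897 and 889 FPKM in CNS and at 232 and 179 FPKM in dLN (log2 ratio 2.12, limma adjusted p = 0.000217), and Lat was not called (log2 ratio 0.0814, limma adjusted p = 0.441). Scaled to the geometric mean of these 14 genes, which moved the median log2 ratio of all genes by -0.849, 7 Gimap genes were still higher in CNS, with log2 ratios from 0.61 (Gimap1) to 4.26 (Gimap7). On the scale of FPKM per FPKM of the marker mean, Gimap5, which turned lower, was at 0.147 and 0.138 in CNS and at 0.202 in both dLN libraries.

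Some markers of other cells differed between the tissues as well. Of 13 tested myeloid markers, 7 were called higher by limma, against 37.8% of all tested genes. Another 6 were not called (S100a8 and S100a9 among them), and none had a log2 ratio below 0.171. All 13 reached a mean of 1 FPKM in CNS, and 1 did in dLN. Most thus entered the test through their CNS level alone, so a ratio above 0 was largely set beforehand. The sum of the 14 markers in the tables was 25.8 and 407 FPKM in CNS and 4.41 and 3.95 FPKM in dLN. In dLN 9 of these 14, S100a8 and S100a9 among them, were listed at 0. S100a8 was listed at 0 in all libraries but CNS replicate 2, where it reached 101 FPKM, and S100a9 was at 0.767 and 96.0 FPKM in CNS. From CNS replicate 1 to replicate 2 the myeloid sum rose 15.8-fold while the Gimap sum went to 0.912 of its value, and 7 of 8 Gimap genes were lower in replicate 2. In dLN, where the myeloid sum hardly differed, 8 of 8 Gimap genes were lower in replicate 2 as well. Without CNS replicate 2, the Gimap log2 ratios ran from 0.46 (Gimap5) to 5.27 (Gimap7). The part of myeloid transcripts in the Gimap levels was not tested.

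B cells, which also read Gimap genes, left little signal. The sum of 12 B-cell markers was 1.53 and 2.90 FPKM in CNS and 0.776 and 0.529 FPKM in dLN, Pax5 was listed at 0 in all 4 libraries, and only Cd79b was tested (log2 ratio 0.94, limma adjusted p = 0.00462). Of the CD8 T-cell and NK-cell markers, 4 of 5 tested were higher, against 37.8% of all tested genes, with sums of 66.7 and 59.2 FPKM in CNS and 5.21 and 4.34 FPKM in dLN. Klrd1, which gave most of that sum, was at 48.8 and 36.2 FPKM in CNS and at 0.875 and 0.531 FPKM in dLN, and Klrk1 had a log2 ratio of 2.86. Cd8b1 was not called, at 3.66 and 4.56 FPKM in CNS and at 3.38 FPKM in both dLN libraries (log2 ratio 0.22, limma adjusted p = 0.181). Klra1 was listed at 0 in all libraries. Endothelial markers summed to 9.66 and 24.5 FPKM in CNS and 3.07 and 2.38 FPKM in dLN, with 5 of 6 tested higher, Vwf among them and Egfl7 not called. Neural and glial markers summed to 51.3 and 57.1 FPKM in CNS and 56.1 and 58.1 FPKM in dLN, and of 4 tested 2 were higher and 1 lower. Mbp, which gave most of that sum, was lower in CNS (log2 ratio -0.28, limma adjusted p = 0.0361). Nefl was higher, at 1.34 and 7.01 FPKM in CNS and listed at 0 in dLN. Of the 12 neural and glial markers, 8 were listed at 0 in both dLN libraries and 1 in both CNS libraries. The near-equal sums therefore describe Mbp and not the other markers. Among the tested markers of these cell types, only Cd8b1, Egfl7 and Mbp reached a mean of 1 FPKM in dLN. The others, Cd79b included, entered the test through their CNS level alone, so a ratio above 0 was largely set beforehand. The part of B-cell, CD8, NK, endothelial and neural transcripts in the Gimap levels was not tested.

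The genes whose pattern over the 4 libraries came closest to the mean of the 8 members were Pias3, Abhd15, Tmem55a, Ssh2 and Cd200r4. Closeness was the Euclidean distance between log2(FPKM + 1) values centred on each gene's mean, and it was 0.0257 for Pias3 and 0.062 for Cd200r4. Pias3 was at 10.6 and 9.94 FPKM in CNS and at 1.73 and 1.35 FPKM in dLN. A much looser distance of 0.5 took in 551 of the 10626 tested non-members. Only Gimap8 and Gimap6 of the members lay within it. Among the members, Gimap8 (0.0785) and Gimap6 (0.189) lay nearest to their own mean and Gimap7 (2.97) and Gimap5 (1.72) farthest from it.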

How the data were processed

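RNA of sorted CD44+CD4 cells was measured in 2 CNS and 2 dLN libraries. The files deposited by the authors give FPKM for each RefSeq transcript of mm10 (33819 transcripts), in 1 table per tissue. The aligner and the FPKM program are not given in the sources used here. Both CNS library names share one header cell, and columns were read in the order of the names. FPKM was summed by symbol, leaving out 565 transcripts without one. Genes whose mean reached 1 FPKM in either tissue entered limma 3.58.1 (eBayes with trend, R 4.3.3), fitted to log2(FPKM + 1) with a single term, tissue. P-values were adjusted by Benjamini-Hochberg and called under 0.05. Ratios on this scale understate changes of low genes. The fit was tested on simulated data. Fragments per library came from the step between low FPKM values, of which 92.0% to 94.4% lay within 0.1 of a whole number of fragments (chance gives 20%). Python 3.11.15, pandas 2.3.3 and biopython 1.88 did the rest.

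The members and the 11 other lists were chosen with earlier results of these data known. Named genes are all members, the 2 with the highest mean level in each list, the nearest tested gene on each side of the cluster, the 5 closest patterns and sex-linked Xist and Ddx3y. Outside that rule, Klf2, Gabarapl2, Irgq, Cd8b1, Pax5 and Klra1 were named after their values were seen. Alternatives covered pseudocount, scaling, transcripts, filters, a replicate block, the trend, a minimum ratio and the omission of single libraries.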

Additional observations from a re-analysis of the deposited data

How the results depend on the processing

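The refits reuse the same 4 libraries, and the filters, the replicate block and the trend leave a member's log2 ratio unchanged, so its direction could not turn there. Of 112 refits of single members, 109 kept direction and side of the threshold. The exceptions were all of Gimap5: its log2 ratio of 0.44 was 0.25 with the same sum per library and 0.38 without dLN replicate 2, neither called (limma adjusted p from 0.00254 to 0.0615 over all settings), and it reversed to -0.49 with the scaling to T-cell markers, which was chosen after seeing the data. The same sum and the same upper quartile per library shifted the median log2 ratio of all genes by -0.179 and 0.122. With a library left out, 7 or 8 members were called, and between 6596 and 7363 genes in place of 7968; the lone library of a tissue is then assumed to vary like the other tissue's. A required log2 ratio of at least 1 left 4168 genes and 7 members, since fewer genes pass a second criterion. Of all called genes 50.4% were higher in CNS, and 21.8% with the T-cell marker scaling.

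Replicates share only a number: the replicate differences of the tissues had a correlation of 0.0933 across genes. A fit with replicate block called 7828 genes and all 8 members. Using each gene's highest transcript, not the sum, left 2 members with a larger share of the family sum in CNS. The shares themselves shifted, with Gimap4 in CNS at 30.9% in place of 35.1% and Gimap3 in CNS at 20.8% in place of 19.1%.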
